A study of Mus musculus with 39 samples.

Results

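The alpha-actinin genes Actn1, Actn2, Actn3 and Actn4 were followed in C2C12 cells, a mouse myoblast line that fuses into myotubes in low serum, during a differentiation course. They were chosen by name as the 4 genes of the family, with Actn2 and Actn3 set against Actn1 and Actn4, and make up 4 of the 29980 genes counted (20960 protein-coding). The wild type (WT) line was compared with a line in which a CRISPR/Cas9 guide was directed at the first exon of Flnc, the gene of filamin C (KO). RNA was taken on day 0, in growth medium with fetal bovine serum, and on days 1, 2, 4 and 6 in medium with 2% horse serum. Each of the 10 groups of line and day held 4 libraries (replicates 1, 3, 4 and 5), except KO day 2 with 3 (replicates 1, 3 and 5), giving 39 libraries. Each genotype is a single cell line, so any difference between the lines outside Flnc is part of every comparison, and whether the KO line is 1 clone is not given in the sources used here. The labels do not say whether replicates came from separate cultures, so the p-values measure only the spread between these libraries.

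Alpha-actinins are rod-shaped dimers of the spectrin superfamily that bind actin filaments at both ends and so cross-link them. Actn2 and Actn3 are the muscle isoforms: they anchor the thin filaments of neighbouring sarcomeres in the Z-disc, with Actn2 in all striated fibres and Actn3 in fast fibres. Actn1 and Actn4 are the nonmuscle isoforms of stress fibres, focal adhesions and cell junctions, and unlike the muscle isoforms their actin binding is lowered by calcium. Filamin C, another actin cross-linker, is also found at the Z-disc of muscle.

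Library totals ran from 6838281 to 28902526 counts, and the group means fell from 26.8 M (WT) and 24.1 M (KO) on day 0 to 11.5 M and 10.2 M on day 6. Flnc itself stood in the KO libraries at 4.36% to 7.63% of its mean WT level, and no KO library reached the lowest WT library on any day. Levels per gene are CPM, the count of a gene divided by the TMM-scaled size of its library and multiplied by 1 constant for all libraries. Of all values above 0, 64.4% were even, so mates of read pairs may have been counted separately. Among the 151 values above 0 of the alpha-actinins, 95 were even. The mean correlation of a library with the others of its group was lowest for KO day 1 replicate 3, at 0.929, then for WT day 0 replicate 4, at 0.955.

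The coding sequences of the family are close, which bears on whether reads of 51 bases can be told apart. Actn2 and Actn3 shared 75.2% of aligned coding bases and Actn1 and Actn4 80.1%. The longest stretch without a mismatch between the muscle isoforms was 51 bases, and it is shown, with its counterpart in the other members, because a read of that length lying on it fits both muscle isoforms. Actn1 and Actn4 shared a longer stretch, of 65 bases, elsewhere. Lines run 5′ to 3′ along the coding strand (GENCODE M21 transcripts), and capitals mark bases that differ from Actn2.
Actn1: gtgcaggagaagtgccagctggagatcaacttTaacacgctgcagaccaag
Actn2: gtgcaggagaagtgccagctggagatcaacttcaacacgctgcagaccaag
Actn3: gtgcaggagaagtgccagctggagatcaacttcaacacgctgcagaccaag
Actn4: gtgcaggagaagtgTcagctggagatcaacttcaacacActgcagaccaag
The stretch starts at coding base 982 in Actn1, 1003 in Actn2, 1021 in Actn3 and 1042 in Actn4. Actn2 and Actn3 were identical over it, while Actn1 differed at 1 base and Actn4 at 2. Of the 51-base words of each gene's transcripts, 1 in Actn2 and 1 in Actn3 also occurred in another member, as did 15 in Actn1 and 15 in Actn4. With words found in genes outside the family included, 6.74% of Actn1 words, 4.46% of Actn4 words, 0.0263% of Actn2 words and 0.0351% of Actn3 words were not unique. How such reads were counted is not given in the sources used here. The exons of Actn4 overlap those of Capn12 on the opposite strand by 316 bases, where Capn12 had 6 counts in all 39 libraries together.

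The promoter windows of the members with an entry in the RefSeq table (3 of 4, build GRCm38.p6) are given because the members rose or fell in opposite directions during differentiation. Each window runs from 250 bases before the start to 50 after it on the gene's strand, which is minus for all of them, and capitals mark E-boxes, the CANNTG letters that myogenic regulatory factors and other basic helix-loop-helix proteins bind.
Actn1, chr12:80260314-80260613: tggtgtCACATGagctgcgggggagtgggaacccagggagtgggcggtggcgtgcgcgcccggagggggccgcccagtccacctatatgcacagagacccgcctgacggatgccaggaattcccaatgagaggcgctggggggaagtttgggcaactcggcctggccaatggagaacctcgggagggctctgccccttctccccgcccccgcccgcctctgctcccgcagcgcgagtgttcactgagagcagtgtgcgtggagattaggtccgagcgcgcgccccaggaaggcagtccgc
Actn2, chr13:12340683-12340982: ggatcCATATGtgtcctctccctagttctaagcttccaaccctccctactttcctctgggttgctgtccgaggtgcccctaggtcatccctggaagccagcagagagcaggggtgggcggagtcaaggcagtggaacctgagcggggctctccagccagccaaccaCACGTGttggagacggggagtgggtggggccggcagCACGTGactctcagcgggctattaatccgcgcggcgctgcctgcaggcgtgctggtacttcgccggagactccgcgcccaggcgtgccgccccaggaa
Actn4, chr7:28962283-28962582: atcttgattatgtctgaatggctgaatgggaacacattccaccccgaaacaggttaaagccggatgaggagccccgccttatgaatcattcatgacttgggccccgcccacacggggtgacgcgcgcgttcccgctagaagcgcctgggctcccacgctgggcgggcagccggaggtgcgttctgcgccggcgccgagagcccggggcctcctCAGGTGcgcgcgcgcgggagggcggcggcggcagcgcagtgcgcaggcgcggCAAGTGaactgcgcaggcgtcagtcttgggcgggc
The Actn2 window held 3 CANNTG words, of which 2 read CACGTG, 84 and 48 bases before the start, and 1 read CATATG. The Actn1 window held 1 (CACATG) and the Actn4 window 2 (CAGGTG and CAAGTG). The CANNTG letters occurred in 72.3% of the 32851 promoter windows of the table and CACGTG, which is also counted within CANNTG, in 7.15%. CAGCTG, another form within CANNTG, was in none of the 3 windows and in 16.3% of the table. Among other motifs, all read on both strands, the GC box GGGCGG occurred 4 times in Actn1, 2 in Actn2 and 4 in Actn4 (35.7% of windows held it), and the MCAT letters CATTCC once, in Actn4 (14.7%). No match to the MEF2 or CArG motif lay in the 3 windows (3.19% and 1.63% of the table). The windows were rich in G and C, at 68.3% in Actn1, 64.7% in Actn2 and 68.0% in Actn4 against a median of 52.7%. They held 24, 19 and 35 CG pairs against a median of 7. These matches describe the letters of the windows and carry no measurement of binding.

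All 4 genes passed the filter on low counts and were tested with 13780 genes in edgeR's quasi-likelihood test, and a call means a p under 0.05 after Benjamini-Hochberg adjustment over all of them. Between KO and WT, 0 of 4 members were called on day 0, where 15.5% of all genes were called. At an unadjusted p under 0.05, 2 members passed on day 0, and DESeq2 called 0. On day 1, 2 members were called, both lower in KO (18% of all genes called in either direction, 9.93% lower). On days 2, 4 and 6 only Actn2 was called, lower in KO, where 17.9%, 27.5% and 28.9% of all genes were called and 10.3%, 14.2% and 14.4% were lower. Against day 0, WT libraries had 1 member called on day 1, Actn3, which was higher (4.19% of all genes called, 2.32% higher), and 4 on each of days 2, 4 and 6 (25.6%, 43.7% and 49.4%), 2 higher and 2 lower. KO libraries had 2 members called on each later day, Actn3 higher and Actn4 lower (7.99%, 26.6%, 37.5% and 43.6% of all genes). The change from day 0 differed between the lines for 0 members on days 1 and 2 (0 and 0.544% of all genes). It differed for 1 on day 4 (7.66%) and 2 on day 6 (9.95%). At an unadjusted p under 0.05, 0 members passed this test on day 1 and 1 on day 2, and DESeq2 called 0 on both days.

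Actn2, the alpha-actinin of all striated muscle Z-discs (ENSMUSG00000052374, chr13:12269426-12340760, GRCm38, minus strand, 3795 exonic bases), rose steeply in WT cells and stayed close to 0 in KO cells. On day 6 it was 106, 170, 125 and 135 CPM in WT replicates 1, 3, 4 and 5, and 1.39, 1.36, 0.398 and 1.64 CPM in the KO replicates of the same numbers. The lowest WT library was thus far above the highest KO library, and the KO mean of 1.20 ± 0.546 CPM (SD, n = 4) was 0.891% of the WT mean of 134 ± 26.8 (n = 4). The edgeR difference was -6.86 ± 0.43 (log2, SE; adjusted p = 4.70e-07, edgeR quasi-likelihood test), the 120th lowest of 13780 genes. Each SE comes from the spread of log2 CPM with a prior count of 2, not from the fit. The limma interval for this difference was wider, at -8.34 to -5.28 (95%, log2). Behind these levels stood 6107 counts over the 4 WT libraries and 46 over the 4 KO libraries, with an exact 95% Poisson interval of 33.7 to 61.4 for the latter, which covers counting error only. All 14 KO values of Actn2 above 0 were even, and if mates were counted separately, 46 counts are 23 fragments and the interval widens to 29.2 to 69.0 counts. In bulk libraries, fewer cells that express a gene and less of its RNA per cell cannot be told apart.

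The gap in Actn2 was already present on day 4. WT replicates 1, 3, 4 and 5 held 74.6, 94.9, 90.9 and 74.0 CPM, and KO replicates 0.296, 0.413, 0.381 and 3.56 CPM. KO replicate 5 stood above the other KO libraries but far below every WT library, and the difference was -6.08 ± 0.75 (adjusted p = 1.60e-06, edgeR). On day 2, WT libraries held 7.71, 5.41, 3.38 and 14.3 CPM and KO replicates 1, 3 and 5 held 0.339, 0.0877 and 0 CPM, again without overlap, with a difference of -5.56 ± 0.74 (adjusted p = 4.05e-04, edgeR). The day 2 KO libraries held 10 Actn2 counts together.

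On days 0 and 1 the gene was low in both lines and the libraries overlapped. Day 0 levels were 1.00, 0.348, 2.62 and 3.16 CPM in WT and 0.275, 0.515, 0.683 and 0 CPM in KO, a difference of -2.28 ± 0.92 that did not pass (adjusted p = 0.0696, edgeR), although without WT day 0 replicate 3 it did (-2.65, adjusted p = 0.0437). On day 1, WT libraries held 0.612, 0.806, 0.237 and 6.52 CPM and KO libraries 0.388, 0, 0 and 0 CPM. WT replicate 5 thus stood apart from the other WT libraries, and 3 of 4 KO libraries lay below all WT libraries. The day 1 difference of -4.19 ± 1.06 was called (adjusted p = 0.00574, edgeR), but without WT replicate 5 it came to -2.35 (adjusted p = 0.174). A library with 0 counts allows, at 3 counts, 0.119 CPM in KO day 0 replicate 5, 0.254, 0.162 and 0.128 CPM in KO day 1 replicates 3, 4 and 5, and 0.184 CPM in KO day 2 replicate 5. If mates were counted separately the limit is at 6 counts and each of these values is 2 times as large.

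Within the WT line, Actn2 on day 1 (mean 2.04 ± 2.99 CPM) was not called against day 0 (1.78 ± 1.32 CPM; adjusted p = 0.920, edgeR), and the sign of this difference turned without WT day 1 replicate 5 (-1.66). It was 4.32 times the day 0 mean on day 2 (7.70 ± 4.74 CPM; 2.12 ± 0.78, adjusted p = 0.0298), 46.9 times on day 4 (83.6 ± 10.9 CPM; 5.56 ± 0.66, adjusted p = 1.32e-06) and 75.3 times on day 6 (6.24 ± 0.67, adjusted p = 2.18e-07, all by edgeR). The day 2 rise was no longer called without WT day 0 replicate 1 (1.89, adjusted p = 0.0827), WT day 0 replicate 3 (1.74, adjusted p = 0.106) or WT day 2 replicate 5 (1.64, adjusted p = 0.129), nor by DESeq2 (adjusted p = 0.0745) or without the filter on low counts (adjusted p = 0.0628, edgeR). In KO cells no day was called against day 0, and the day 6 difference was 1.67 ± 0.76 (adjusted p = 0.165, edgeR) at a mean that had moved from 0.368 ± 0.297 to 1.20 CPM. The change from day 0 to day 6 differed between the lines by -4.57 ± 1.01 (adjusted p = 0.0148, edgeR), and that to day 4 by -3.80 ± 1.19 (adjusted p = 0.0468). The day 6 value lost its call without KO day 0 replicate 4 (-4.07, adjusted p = 0.0684). The day 4 value lost it without any 1 of 12 of the 16 libraries (adjusted p = 0.0561 to 0.153), the exceptions being WT day 0 replicates 4 and 5, KO day 0 replicate 5 and KO day 4 replicate 5.

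**Figure D1:**
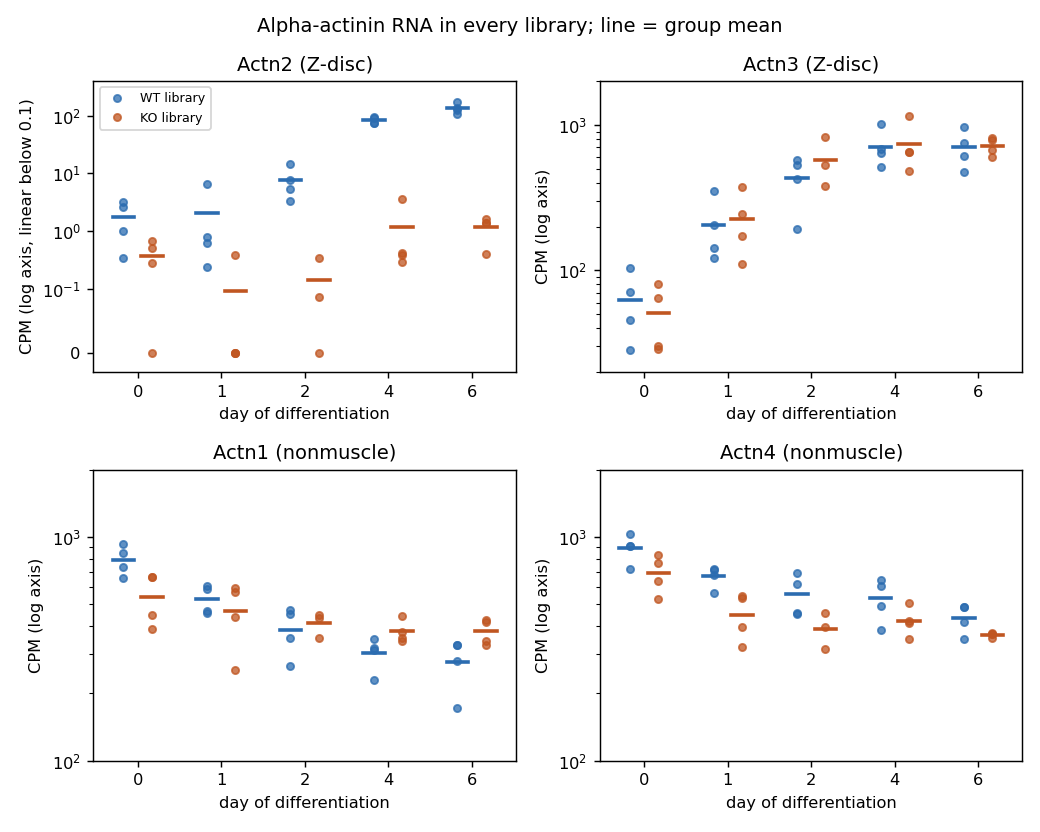
Level of each alpha-actinin gene in every library, in CPM on a log axis, against day of differentiation, with WT and KO side by side, 1 point per library and a line at each group mean. Actn2 separates the lines from day 2 on (134 against 1.20 CPM on day 6), while Actn3 climbs in both and the group means of Actn1 and Actn4 decline.

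Actn3, the fast-fibre Z-disc isoform (ENSMUSG00000006457, chr19:4861216-4877909, minus strand, 2901 exonic bases), rose in both lines and had the highest mean of the 4 from day 2 on in CPM per kilobase of exon. On day 0 it was 45.7, 28.5, 104 and 70.7 CPM in WT replicates 1, 3, 4 and 5 and 64.4, 30.4, 81.2 and 29.0 CPM in KO. On day 6 it was 474, 754, 609 and 962 CPM in WT and 676, 814, 603 and 783 CPM in KO. The 2 lines overlapped on every day, and each later day lay above day 0 in every library of its line.

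The day 6 level of Actn3 was 11.3 times the day 0 mean in WT (3.49 ± 0.46, adjusted p = 7.07e-08, edgeR) and 14.0 times in KO (3.81 ± 0.39, adjusted p = 4.19e-08). The rise was called from day 1 on in both lines, at 1.72 ± 0.53 in WT (adjusted p = 0.0134, edgeR) and 2.14 ± 0.53 in KO (adjusted p = 0.00165). The KO day 1 call was lost when only the groups compared were fitted (2.15, adjusted p = 0.0990, edgeR). The WT day 1 call was lost without WT day 0 replicate 3 (1.45, adjusted p = 0.0843) or WT day 1 replicate 5 (1.31, adjusted p = 0.130). Group means of 205 ± 103, 429 ± 169, 710 ± 212 and 700 ± 209 CPM in WT stood beside 226 ± 114, 577 ± 224, 733 ± 292 and 719 ± 97.5 CPM in KO on days 1, 2, 4 and 6. KO minus WT ranged from -0.28 ± 0.55 on day 0 (adjusted p = 0.685, edgeR) to 0.43 ± 0.48 on day 2 (adjusted p = 0.571) and was 0.04 ± 0.24 on day 6 (adjusted p = 0.961). Its sign on days 0, 1, 4 and 6 turned when single libraries were left out. The day 6 interval from limma, -0.75 to 0.90 (95%, log2), spans a difference of either sign, so the data bound a difference in Actn3 without showing that the lines are alike. The change from day 0 to day 6 did not differ between the lines beyond its error (0.32 ± 0.60, adjusted p = 0.781, edgeR).

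Actn1, the nonmuscle isoform of stress fibres and focal adhesions (ENSMUSG00000015143, chr12:80167547-80260371, minus strand, 5533 exonic bases), fell in WT cells and less in KO cells. On day 0, WT replicates 1, 3, 4 and 5 held 658, 927, 845 and 736 CPM and KO replicates 661, 387, 662 and 447 CPM. On day 6, WT libraries held 328, 279, 331 and 171 CPM and KO libraries 424, 330, 418 and 342 CPM. The lines overlapped on both days, with 2 of 4 KO libraries below all WT libraries on day 0 and 3 of 4 above all of them on day 6.

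In WT, Actn1 stood on day 6 at 35.1% of its day 0 mean (277 ± 74.5 against 791 ± 118 CPM; -1.51 ± 0.25, adjusted p = 2.62e-06, edgeR), and the fall was called from day 2 (-1.04 ± 0.22, adjusted p = 0.00118). In KO it stood at 70.2% (379 ± 49.5 against 539 ± 144 CPM; -0.51 ± 0.22, adjusted p = 0.0741, edgeR), and no later day was called. Without KO day 0 replicate 3 the KO day 6 value passed (-0.62, adjusted p = 0.0466). The change to day 6 differed between the lines by 1.00 ± 0.33 (adjusted p = 0.0462, edgeR), that to day 4 by 0.89 ± 0.27 (adjusted p = 0.0961). The day 6 difference lost its call without any 1 of 10 of the 16 libraries (adjusted p = 0.0517 to 0.142), the exceptions being WT day 0 replicate 1, WT day 6 replicates 1 and 4, KO day 0 replicates 1 and 4 and KO day 6 replicate 3. On single days KO minus WT did not pass, at -0.55 ± 0.23 on day 0 (adjusted p = 0.103, edgeR), -0.19 ± 0.30 on day 1 (0.641), 0.09 ± 0.22 on day 2 (0.864), 0.33 ± 0.16 on day 4 (0.315) and 0.45 ± 0.24 on day 6 (0.154). With the replicate number as a block, the day 0 difference was -0.58 and passed (adjusted p = 0.0406, edgeR), as did the difference in the change to day 4 (0.94, adjusted p = 0.0308). The block also brought KO day 6 against day 0 past the threshold (-0.50, adjusted p = 0.0450, edgeR). Same-numbered libraries deviated together between the lines on days 0 and 4. Across days they did not in every pair, with lowest correlations of -0.369 (WT, days 4 and 0), 0.0460 (KO, days 4 and 0) and 0.0541 (KO, days 6 and 0). The KO mean of Actn1 was below the WT mean on days 0 and 1 and above it on days 2, 4 and 6, and the signs on day 1 (without KO day 1 replicate 3) and day 2 (without WT day 2 replicate 5) each rested on 1 library.

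Actn4, the nonmuscle isoform that cross-links actin in motile cells and at junctions (ENSMUSG00000054808, chr7:28893248-28962340, minus strand, 6127 exonic bases), fell in both lines, and its KO mean lay below the WT mean on each day. On day 0, WT replicates 1, 3, 4 and 5 held 722, 916, 1035 and 917 CPM and KO replicates 527, 634, 828 and 762 CPM. On day 1, WT libraries held 717, 561, 711 and 680 CPM and KO libraries 535, 324, 545 and 397 CPM. Day 1 was the only day on which no KO library reached the lowest WT library.

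The day 1 difference in Actn4 was -0.57 ± 0.20 (adjusted p = 0.0400, edgeR), with the KO mean at 67.5% of WT. It lost its call without any 1 of WT day 1 replicates 1, 4 and 5 and KO day 1 replicates 3 and 5 (-0.43 to -0.58, adjusted p = 0.0713 to 0.164), KO day 1 replicate 3 being the library least like its group. On day 2 the KO mean was 70.3% of WT (-0.51 ± 0.22, adjusted p = 0.0991, edgeR), and with the replicate number as a block this difference passed (-0.58, adjusted p = 0.0266). By day 6 WT libraries held 488, 416, 488 and 350 CPM and KO libraries 367, 353, 373 and 370 CPM. The KO libraries lay within 353 to 373 CPM, inside the WT range, and the difference of -0.25 ± 0.12 did not pass (adjusted p = 0.369, edgeR).

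From day 0 to day 6, Actn4 went to 48.5% in WT (897 ± 130 to 435 ± 66.4 CPM; -1.04 ± 0.16, adjusted p = 4.48e-05, edgeR) and to 53.2% in KO (688 ± 134 to 366 ± 8.49 CPM; -0.91 ± 0.15, adjusted p = 3.52e-04). The fall was called from day 2 in WT (-0.69 ± 0.19, adjusted p = 0.00814, edgeR) and from day 1 in KO (-0.61 ± 0.23, adjusted p = 0.0481). The KO day 1 call was lost without any 1 of KO day 0 replicates 3, 4 and 5 and KO day 1 replicates 1, 3 and 5 (adjusted p = 0.0565 to 0.165), with the replicate number as a block within both groups (-0.62, adjusted p = 0.115) and when only these groups were fitted (-0.61, adjusted p = 0.317). The WT day 2 call was lost in the same 2 fits (adjusted p = 0.109 and 0.0562, edgeR). The change to day 6 did not differ between the lines beyond its error (0.13 ± 0.22, adjusted p = 0.813, edgeR).

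**Figure D2:**
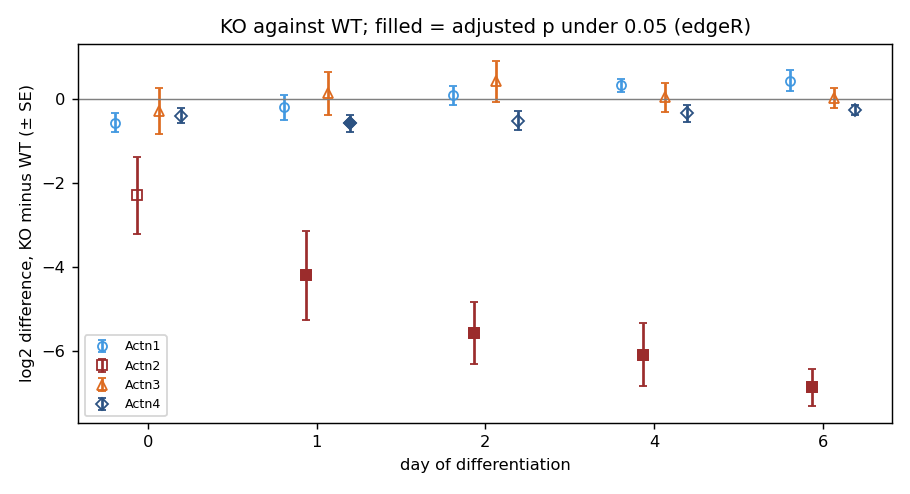
KO minus WT of each alpha-actinin gene by day, on the log2 scale of the edgeR fit, with bars of 1 SE taken from the spread of log2 CPM. Actn2 runs from -2.28 on day 0 to -6.86 on day 6, and the other members stay between -0.57 and 0.45.

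The nonmuscle pair fell together in WT but not to the same extent, which the ratio of Actn4 to Actn1 in CPM per kilobase of exon describes. Its log2 in WT replicates 1, 3, 4 and 5 was 0.78, 0.74, 0.52 and 0.60 on day 4 and 0.42, 0.43, 0.41 and 0.88 on day 6. In KO it was -0.13, 0.05, 0.11 and -0.02 on day 4 and -0.35, -0.05, -0.31 and -0.03 on day 6. The lines were apart on these days, with Actn4 above Actn1 in every WT library and below it in KO apart from day 4 replicates 3 and 4. On day 2 they were apart too, at a mean of 0.39 ± 0.21 (SD, n = 4) in WT and -0.24 ± 0.10 (n = 3) in KO. On days 0 and 1 they overlapped, with means of 0.03 and 0.19 in WT and 0.22 and -0.15 in KO. No test was made of this ratio, which is built from the members.

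**Figure D3:**
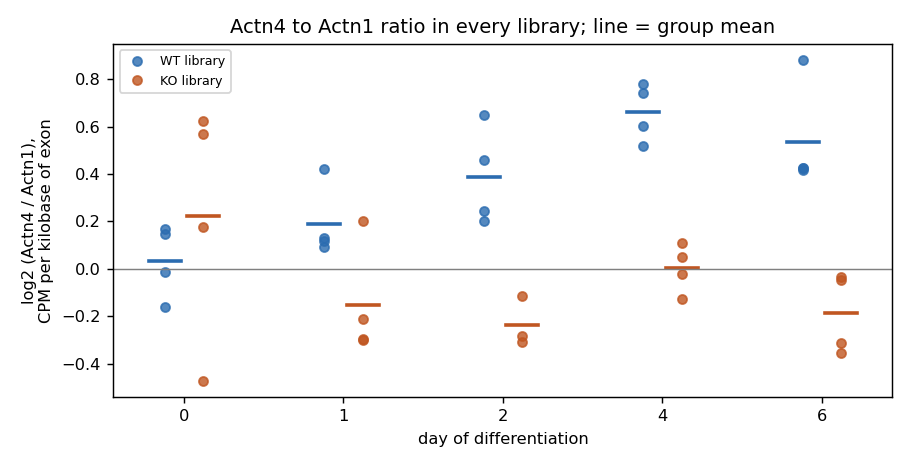
Log2 ratio of Actn4 to Actn1, both in CPM per kilobase of exon, in every library against day of differentiation, with a line at each group mean. WT libraries lie above 0 from day 1 on and KO libraries lie below all WT libraries on days 2, 4 and 6.

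As shares of the alpha-actinin level in CPM per kilobase of exon, the family turned from nonmuscle to muscle isoforms in both lines. On day 0 WT libraries held on average 46.0% Actn1, 47.0% Actn4, 6.78% Actn3 and 0.149% Actn2, and KO libraries 42.6%, 49.9%, 7.50% and 0.0423%. On day 6 the WT shares were 13.1% Actn1, 18.4% Actn4, 59.7% Actn3 and 8.88% Actn2, and the KO shares 18.3%, 15.9%, 65.6% and 0.0823%. Actn2 was the one member whose day 6 share separated the lines, at 7.83% to 10.6% in WT libraries and 0.0305% to 0.11% in KO libraries. Actn2 was thus a minor alpha-actinin transcript even in WT cells on day 6, below Actn3. The summed level of all 4 members was 398 ± 54.1 CPM per kilobase in WT and 376 ± 24.6 in KO on day 6, with overlapping libraries.

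The balance of muscle over nonmuscle isoforms, the log2 of Actn2 plus Actn3 over Actn1 plus Actn4 in CPM per kilobase, rose in both lines. Its WT means on days 0, 1, 2, 4 and 6 were -3.88 ± 0.81, -1.64 ± 0.69, -0.18 ± 0.72, 0.90 ± 0.41 and 1.17 ± 0.70. The KO means were -3.69, -1.11, 0.47, 0.81 ± 0.34 and 0.95 ± 0.31. The libraries of the lines overlapped on every day, so the sum of the muscle isoforms, carried by Actn3, did not separate the lines where Actn2 alone did. Without division by length, the KO minus WT balance on day 6 was -0.26 in place of -0.22.

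**Figure D4:**
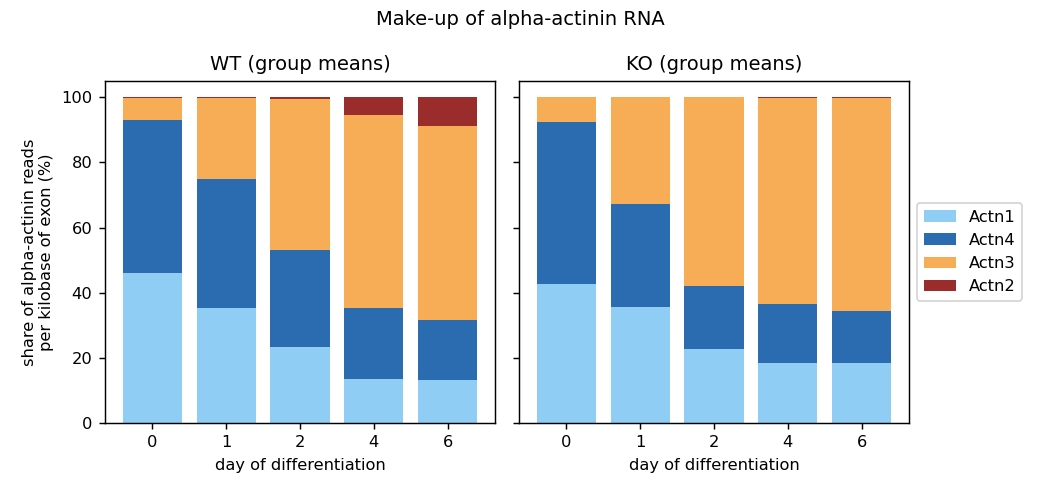
Mean share of each gene in the summed alpha-actinin level, in percent of CPM per kilobase of exon, for each line and day as stacked bars from 0. Actn3 takes most of the level from day 4 on in both lines (59.7% in WT and 65.6% in KO on day 6), and the Actn2 segment, 8.88% in WT on day 6, is hardly visible in KO.

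Ordered by group mean, Actn2 was highest in WT day 6 and then WT day 4, each apart from the next group, and its remaining 8 groups each overlapped the next in the order. Actn3 had its break between WT day 1 and WT day 0, with the 2 day 0 groups lowest, and its 8 later groups formed an overlapping series topped by KO day 4. In Actn1 and Actn4 every group overlapped the next, from WT day 0 at the top to WT day 6 (Actn1) or KO day 6 (Actn4) at the bottom. Overlap here compares the ranges of few libraries and does not show that neighbouring groups are alike.

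Across WT libraries (n = 20), which share the time course, the members ran in opposing pairs. Pearson's r of log2 CPM was 0.94 for Actn1 with Actn4, 0.84 for Actn2 with Actn3, -0.86 for Actn1 with Actn3 and -0.82 for Actn1 with Actn2. Across KO libraries (n = 19) the same values were 0.70, 0.41, -0.36 and -0.05. Actn3 with Actn4 was -0.71 in WT and -0.69 in KO. These are descriptions over libraries that share day and line, and the Actn2 values in KO rest on few counts.

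Among 10037 protein-coding genes with a mean of at least 5 CPM, the genes whose log2 CPM over the 39 libraries was most like each member were found by Pearson's r. Nearest to Actn2 were Pacsin3, an endocytic adaptor (0.977), Afap1l1, an actin filament-associated protein (0.953), Crym, a thyroid hormone-binding crystallin (0.951), and Rbm38, an RNA-binding protein (0.947). Pacsin3 went from 42.4 ± 11.1 to 192 ± 11.4 CPM between days 0 and 6 in WT and went from 27.1 ± 6.37 to 38.0 ± 6.96 in KO. Afap1l1 reached 69.6 ± 11.3 CPM in WT and 1.49 ± 0.718 in KO on day 6. These genes were picked for likeness to Actn2 over the same libraries, so sharing its high level in late WT libraries is no separate evidence.

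Nearest to Actn3 were Klhl40, a thin-filament Kelch protein of muscle (0.948), Tnnt1, the slow troponin T (0.946), Atp2a1, the calcium pump of fast fibres (0.942), and Iffo1 (0.939). Atp2a1 reached 552 ± 141 CPM in WT and 628 ± 201 in KO on day 6, and Tnnt1 504 ± 239 and 700 ± 175. Klhl40, the nearest, had a mean of 92.6 ± 9.04 CPM over WT libraries and 44.4 ± 16.2 over KO libraries on day 6, and Iffo1 had 260.4 ± 20.9 and 163 ± 28.5. All 4 were thus above their day 0 means in both lines on day 6, with the KO mean above the WT mean for Atp2a1 and Tnnt1 and below it for Klhl40 and Iffo1. Nearest to Actn1 were Myh9, the heavy chain of nonmuscle myosin IIA (0.888), Pacs1 (0.873), Hnrnpul1 (0.872) and Cep250, a centrosome linker (0.872). Myh9 went from 2184 ± 455 to 673 ± 120 CPM in WT and from 1604 ± 652 to 1009 ± 192 in KO. Nearest to Actn4 were Ppp2r5d, a regulatory subunit of protein phosphatase 2A (0.901), Nacc1 (0.895), Epha2, an ephrin receptor (0.886), and Ipo9, a nuclear import receptor (0.885). With Spearman's rho in place of Pearson's r, 3 of the 4 genes remained for Actn1 and Actn4 and 2 of the 4 for Actn2 and Actn3.

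Partners and relatives of the family were described from 5 lists on day 6, where over all genes tested the median KO minus WT was 0.02, with 14.5% of genes higher and 14.4% lower. Of 18 Z-disc partners 17 were tested, 0 higher and 11 lower in KO, with a median of -1.43. Their median was -0.97 on day 0, and their change from day 0 to day 6 differed between the lines by a median of -0.50. Myoz2, a calsarcin that binds alpha-actinin and calcineurin, averaged 238 ± 83.5 CPM over WT libraries and 6.90 ± 3.33 over KO libraries (-5.11 ± 0.43, adjusted p = 2.28e-07, edgeR). Synpo2l, a Z-disc protein of the synaptopodin family, was at 680 ± 119 and 249 ± 23.0 CPM (-1.45 ± 0.14, adjusted p = 7.37e-04). Nrap, a nebulin-related anchor of developing myofibrils, was at 168 ± 40.0 and 56.0 ± 11.0 CPM (-1.59 ± 0.22, adjusted p = 0.00116). Each of these 3 differences was smaller in size than that of Actn2 at -6.86, without a test between genes. Without WT day 6 replicate 5 the count of lower Z-disc partners was 7.

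Adhesion partners, which sit with Actn1 and Actn4 at focal adhesions, did not move in 1 direction: of 14 tested of 15, 3 were higher and 3 lower in KO, with a median of -0.15. Pdlim1, a PDZ-LIM adaptor that binds alpha-actinin, was lower (178 ± 21.4 in WT and 28.9 ± 11.0 CPM in KO, -2.62 ± 0.30, adjusted p = 1.31e-06, edgeR), as was Parvb, the beta-parvin of integrin adhesions (-1.21 ± 0.11, adjusted p = 1.50e-05). Lpp, a LIM protein that binds alpha-actinin, was higher (51.0 ± 15.9 in WT and 191 ± 41.5 CPM in KO, 1.90 ± 0.28, adjusted p = 0.00189). Pdlim1 was the partner of this list with the smallest p, and its direction is opposite to that of Lpp. The median of the list was -0.37 on day 0, and the change from day 0 to day 6 differed between the lines by a median of 0.08. On day 0 every KO library lay below all WT libraries for Pdlim1 (37.9% of the WT mean) and Parvb (42.7%). Lpp overlapped there, at 91.8%.

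Of 12 fast fibre genes, 0 were higher and 6 lower (median -1.68), and of 8 slow fibre genes tested of 9, 0 were higher and 5 lower (median -2.51). On day 0 these medians were -1.55 and -1.43, where that of all genes was -0.0087. There 4 fast and 2 slow genes were called lower and 0 higher, with 15.5% of all genes called in either direction. With single libraries left out, 0 to 6 fast and 1 to 3 slow genes were lower on day 0. Some levels were near 0 on that day, as for Casq1 (0.197 CPM in WT and 0.264 in KO) and Myl2 (0.392 and 0.171 CPM). The change from day 0 to day 6 differed between the lines by medians of 0.13 (fast) and -0.05 (slow), beside 0.03 over all genes. A median of changes need not equal the change of the medians. Casq1, the calsequestrin of fast fibres, was lower by edgeR at -4.48 ± 0.85 (adjusted p = 3.95e-04), Mylpf, the fast regulatory light chain, at -2.30 ± 0.42 (0.00229), and Pygm, muscle glycogen phosphorylase, at -2.13 ± 0.30 (0.00660). Myl2, the slow regulatory light chain, was at -5.68 ± 0.71 (adjusted p = 3.49e-06, edgeR), Casq2 at -3.74 ± 0.29 (1.10e-04) and Tnni1, slow troponin I, at -3.07 ± 0.40 (2.94e-04). Actn3, whose protein marks fast fibres, was at 0.04, beside Atp2a1 at 0.19 ± 0.32 (adjusted p = 0.816) and Tnnt1 at 0.47 ± 0.36 (adjusted p = 0.403), which were not called. Both were named for their likeness to Actn3 over these same libraries, so their small differences are no separate evidence. Klhl40 and Iffo1, named in the same way, had lower KO means. The count of lower fast fibre genes was 10 when only the day 6 libraries were fitted.

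In the spectrin superfamily, to which the alpha-actinins belong, 0 of 12 genes were higher and 3 lower (median -1.07). On day 0 this median was -0.76, and the change from day 0 to day 6 differed between the lines by a median of -0.45. Sptan1, the nonerythroid alpha spectrin, averaged 904 ± 137 CPM over WT libraries and 424 ± 108 over KO libraries (-1.09 ± 0.21, adjusted p = 0.00259, edgeR). Sptb, a beta spectrin, had 32 counts in WT and 0 in KO, at least 12.1-fold lower in KO if 3 counts over the KO libraries are taken as the floor, or 6.05-fold if mates were counted separately. The count of lower genes was 5 with DESeq2's size factors and 6 without WT day 0 replicate 4 and KO day 1 replicate 3. With Sptb at its bound, the median of the list was also -1.07. The 5 lists were chosen with earlier results of these libraries known, so their counts are no independent evidence of a direction.

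**Figure D5:**
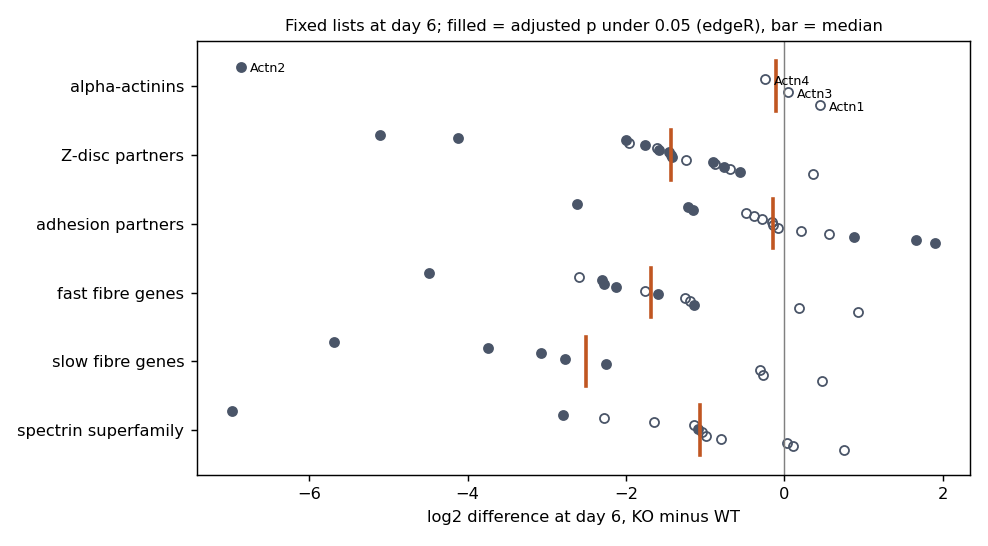
KO minus WT on day 6 for each tested gene of the 5 lists and of the alpha-actinins, on the log2 scale of the edgeR fit, with filled points for called genes and a bar at each list's median. Z-disc partners, fast and slow fibre genes lie mostly below 0 (medians -1.43, -1.68 and -2.51) and adhesion partners on both sides. Sptb, drawn at its fitted value, had 0 counts in KO.

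Markers of cell identity were read beside the day 6 result for Actn2. Of 6 myogenic markers all 6 were detected, with a summed level of 4434 to 6666 CPM in WT libraries and 3471 to 4336 in KO. The summed levels were apart by a narrow margin, and most of the mean level was Des (3196 CPM in WT and 2579 in KO). Among single markers, Myod1, a myogenic regulatory factor, was higher in KO (0.98 ± 0.13, adjusted p = 7.85e-04, edgeR) and Cdh15, the muscle cadherin, was lower (-0.79 ± 0.11, adjusted p = 0.0114). The other 4 had lower KO means and were not called. Of these, Myog, the factor of terminal differentiation, averaged 1196 CPM over WT libraries and 460 CPM over KO libraries (-1.38 ± 0.37, adjusted p = 0.0588, edgeR), and Myf5, Ckm and Des were at -0.74, -0.64 and -0.31. Of 5 fibroblast markers 4 were detected (Thy1 at 0), with summed levels of 120 to 583 CPM in WT and 21.5 to 70.1 in KO. Most of the WT sum was Dcn, decorin, at a mean of 375 CPM in WT and 18.5 in KO, which was lower, as was Col1a1, while Pdgfra was higher in KO (6.06 against 19.3 CPM, 1.68 ± 0.23, adjusted p = 0.00156, edgeR). Of 6 smooth muscle markers all 6 were detected, at 2719 to 4209 CPM in WT and 4201 to 6957 in KO, most of it Acta2. Of 5 tested, 1 was called higher in KO and 0 lower. KO means were above WT means for Acta2, Lmod1 and Tagln (49.0 CPM in WT and 225 in KO). They were below for Smtn (103 and 77.5 CPM) and Cnn1 (0.194 and 0.0694 CPM). The defining marker Myh11 had 53 counts in all 39 libraries, with day 6 means of 0 CPM in WT and 0.313 in KO. Adipocyte markers (3 of 5 detected, Cfd and Lep at 0) summed to at most 0.483 CPM in WT and 2.72 in KO. Endothelial markers (4 of 5, Tie1 at 0) reached at most 4.56 and 2.59 CPM. Summed cycling markers had medians of 1804 CPM on day 0 and 16.2 on day 6 in WT and of 1629 and 22.2 in KO. Mitochondrial transcripts made up 2.89% to 3.47% of counts in WT and 4.06% to 5.97% in KO on day 6. The part of these differences in the Actn2 result was not tested.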

How the data were processed

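Bulk mRNA libraries (TruSeq Stranded, 51-base reads) of 39 C2C12 samples were analysed in 10 groups of line and day, taken from the labels. The deposited table holds raw counts per gene, which the authors made with FastQC 0.11.9, STAR 2.7.9 and featureCounts 2.0.3, per the submitters' processing notes. Those notes also name DESeq2 and both GRCm38 and GRCh38, with no role stated, and the strand setting and gene annotation are not given in the sources used here. All 29980 identifiers matched GENCODE M21 on GRCm38, which gave symbols, positions and exonic lengths. A column that matched no sample (1) was not used.

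A single edgeR 4.0.16 model of 10 group means (R 4.3.3) was fitted to the counts, with TMM factors of 0.904 to 1.05, filterByExpr by group, robust quasi-likelihood F-tests and 29 residual degrees of freedom. Of 29980 genes, 13780 were tested, and calls are at p under 0.05 after Benjamini-Hochberg adjustment. Log2 differences are those of the fit, with an SE from the variances of log2 CPM (prior count 2), each divided by its group size, added and square-rooted. Levels per kilobase divide CPM by exonic length. The fit was also run on simulated counts with known folds between the lines on day 6, the outcome of which is not given here. Folds as large as that of Actn2 were not tried, so this run is no check of its KO groups near 0 counts. DESeq2 1.42.0 and limma 3.58.1, other scalings and filters, halved counts, replicate blocks and left-out libraries were alternatives, limma being added after the data were seen.

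Replicate numbers recur across groups. Deviations of same-numbered libraries from their group means correlated above 0.1 in every pair for KO against WT on days 0, 1, 2 and 4 (0.126 to 0.571) and in WT and KO for days 1 and 0, and in KO for days 2 and 0. This did not hold for KO against WT on day 6 (lowest -0.0172) or the other contrasts, and the labels do not say what a number marks. The members and all lists were chosen with earlier results of these data known. Named genes were the 4 members, Flnc, up to 3 genes of each list with the smallest p on day 6 among those called, and the 4 genes most like each member by Pearson's r over libraries among protein-coding genes of at least 5 CPM. The values of 1 gene that this rule names are not reported here.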

Additional observations from a re-analysis of the deposited data

Results flagged for a closer look

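Among 36 groups of 4 libraries of the 4 genes examined, 3 libraries stood apart from the others of their group, all for Actn2. Chance alone marks about 1 group in 20 if values are normally distributed. CPM from few counts need not be, so the 3 are not weighed against chance. In WT day 1, replicate 5 held 6.52 CPM against 0.237 to 0.806 CPM in the other libraries. In KO day 1, replicate 1 held 0.388 CPM, from 8 counts, while the other libraries held 0 counts. With 3 libraries tied at 0 any count in the other would stand apart, so this case does not bear on that rate. In KO day 4, replicate 5 held 3.56 CPM, from 66 counts, against 0.296 to 0.413 CPM in the others. Without WT day 1 replicate 5 the day 1 difference of Actn2 between the lines was -2.35 and was not called (adjusted p = 0.174, edgeR). Without KO day 4 replicate 5 the day 4 difference remained called.

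The change since day 0 differed between the lines in 3 cases by the test of that difference. For Actn1 it differed on day 6 by 1.00 on the log2 scale (adjusted p = 0.0462, edgeR), the KO line falling less than the WT line. For Actn2 it differed on day 4 by -3.80 (adjusted p = 0.0468, edgeR) and on day 6 by -4.57 (adjusted p = 0.0148), the WT line rising and the KO line staying near 0. Each of the 3 lost its call when 1 or more single libraries were left out, as given with each gene.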

How the results depend on the processing

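No called difference of the 4 genes changed sign under any alternative run, while 33 values of differences that were not called did (1 of them of Flnc). Over 44 member results (KO against WT, genotype by day, and day 6 against day 0), 372 of 394 values from other tools, scalings, filters, blocks and sample sets kept their direction and side of the threshold, 9 lost a call, 6 gained one and 7 changed sign. With a library left out, 423 of 472 values kept both, 29 lost a call, 2 gained one and 18 changed sign. Without division by length, KO minus WT of the muscle to nonmuscle balance moved by less than 1 SD within groups on each day. Leaving out 1 library of a group of 3 or 4 cannot move it by 1 SD, so that limit is no check there. With a library left out, 4 of 39 values changed sign, and the day 6 value ran from -0.46 to 0.071. Actn3 between the lines on day 6 was -0.014 with DESeq2 and with its size factors. Without the pair of libraries named below, Actn3 between the lines was 0.080 on day 0 and Actn1 0.025 on day 1, and the genotype by day differences were -0.053 (Actn3, day 4), -0.042 (Actn4, day 4) and -0.080 (Actn3, day 6). Actn2 in WT on day 1 against day 0 was -0.055 with the replicate block, -0.26 with the block within groups and -0.40 with limma. Single libraries left out turned the sign of uncalled differences over these ranges: between the lines, Actn3 -0.59 to 0.083 (day 0), -0.21 to 0.51 (day 1), -0.25 to 0.26 (day 4) and -0.11 to 0.21 (day 6), and Actn1 -0.33 to 0.027 (day 1) and -0.049 to 0.21 (day 2). For genotype by day they were Actn3 -0.046 to 0.64 (day 4) and -0.074 to 0.63 (day 6), and Actn4 -0.26 to 0.0063 (day 2) and -0.074 to 0.16 (day 4). Against day 0 they were -1.66 to 0.65 for Actn2 on WT day 1, -0.018 to 2.27 for Actn2 on KO day 4 and, in WT on day 1, -0.028 to 0.46 for Flnc. For the Actn1 genotype by day difference on day 6, calls were lost with DESeq2's size factors (0.95, adjusted p = 0.0581), without the filter (0.98, 0.0873) and with only the contrast's groups (0.96, 0.0597), and leaving out single libraries gave 0.81 to 1.12. For Actn2 on day 4 they were lost without the filter (-3.81, adjusted p = 0.0948), with halved counts (-3.79, 0.0548) and with only the contrast's groups (-3.81, 0.0550), and single libraries gave -5.55 to -3.29, against -5.03 to -4.07 on day 6. For Actn4 between the lines on day 1 they were lost without the filter (-0.55, adjusted p = 0.0903), without WT day 0 replicate 4 and KO day 1 replicate 3 together (-0.43, 0.154) and with only the day 1 groups (-0.53, 0.201), and single libraries gave -0.67 to -0.43. Leaving out single libraries gave -2.79 to -1.85 for Actn2 between the lines on day 0, -8.27 to -2.35 on day 1, and -0.62 to -0.40 for Actn1 in KO on day 6 against day 0, where leaving out both libraries named above gave -0.50 (adjusted p = 0.0464).

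With the replicate block, calls were gained for Actn1 between the lines on day 0 (-0.58, adjusted p = 0.0406), for Actn1 in KO on day 6 against day 0 (-0.50, 0.0450) and for the Actn1 genotype by day difference on day 4 (0.94, 0.0308). With the block within the groups compared they were gained for Actn4 between the lines on day 2 (-0.58, adjusted p = 0.0266) and for Actn1 on day 6 (0.46, 0.0383). On day 6 the deviations of same-numbered libraries did not correlate above 0.1 in every pair (-0.0172 to 0.185). The block within groups ended the calls of Actn4 on WT day 2 (-0.70, adjusted p = 0.109) and KO day 1 (-0.62, 0.115) against day 0 and changed no other member call. Outside the block, fits of only the groups compared ended those of Actn4 on WT day 2 (-0.69, adjusted p = 0.0562), of Actn3 on KO day 1 (2.15, 0.0990) and of Actn4 on KO day 1 (-0.61, 0.317), the last also lost with DESeq2's size factors (-0.61, 0.0504), without the filter (-0.60, 0.105) and without both libraries named above (-0.48, 0.0817). The cause of these changes was not tested. Counts of all genes called moved by over 1.5 times in some alternatives: between the lines from 2142 to between 1421 and 3657 on day 0, from 2484 to as few as 1372 on day 1 and from 2467 to as many as 3734 on day 2. Against day 0 they moved from 577 to between 314 and 1312 (WT day 1), from 1101 to between 17 and 3372 (KO day 1) and from 3521 to as few as 2128 (WT day 2). For genotype by day they moved from 0 to 1 on day 1, from 75 to between 40 and 184 on day 2, from 1056 to 1608 on day 4 and from 1371 to 2368 on day 6. Depth limits Actn2 in KO libraries, where a group held 8 to 82 counts in all.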
